A study of Arabidopsis thaliana with 12 samples.

Results

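The comparison described here set the shoot apex of Arabidopsis thaliana seedlings grown with L-AOPP against that of mock-treated seedlings. It takes in 6 of the 12 arrays of the series, chosen by their titles: 3 of the dissected shoot apical meristem part (SAM) after L-AOPP and 3 of the same part after mock treatment. Seedlings of ecotype Col-0 grew from seed on MS agar plates at 21 °C in continuous light. The L-AOPP plates held 50 µM of the compound and the mock plates 0.1% DMSO. No DMSO content is given for the L-AOPP plates. The plants were 4 days old by the sample labels and 7 days old by the series text. The other 6 arrays, of SAM with L-AOPP and 10 nM indole-3-acetic acid (IAA) and of whole mock plants, entered the model as further groups.

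L-AOPP, 2-aminoxy-3-phenylpropionic acid, inhibits phenylalanine ammonia-lyase, the entry enzyme of phenylpropanoid synthesis, and the series text gives inhibition of auxin biosynthesis as the subject of study. Auxin is made from tryptophan, accumulates at the sites where leaves start at the flanks of the meristem, and acts largely through changes in transcription. The shoot apex holds the stem cells, the young leaf primordia and the first differentiating tissue. Its transcripts therefore come from several cell types, and in such samples fewer cells of a type and less RNA per cell cannot be told apart.

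The values are linear signal intensities per probe set, scaled by the submitters with MAS5 to a common level. Values below 20 were set to 20, log2 was taken and limma was fitted to all 12 arrays. A probe set is called here when its adjusted p was below 0.05 (limma, Benjamini-Hochberg over 15923 probe sets). The median signal was 179 to 185 on the L-AOPP arrays and 179 to 193 on the mock arrays. Rank correlations between arrays were 0.989 to 0.991 within L-AOPP, 0.982 to 0.989 within mock and 0.975 to 0.988 between the groups. The 25S rRNA control stood apart on 1 array: it read 6280, 7580 and 9200 with L-AOPP, against 5800, 6260 and 164 in mock, the last value being mock replicate 3. The labels do not say whether the 3 arrays of a group go back to separate cultures. If they do not, the p-values reflect only how far these arrays differ, and that difference may be technical.

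L-AOPP changed a small part of the apex transcriptome in both directions. Of 15923 probe sets, 418 were called (2.63%), 199 of them higher (1.25%) and 219 lower (1.38%), and the median log2 difference over all of them was -0.01. A difference of at least 2-fold was seen in 37 of the higher and 28 of the lower sets. The annotation gave exactly 1 gene for 83 of the higher and 91 of the lower sets (1.98% of such sets). The other 244 called sets (3.41% of theirs), 116 higher and 128 lower, carry no single gene name and are not described further. Of the 174 called sets with 1 gene, 32 stood on at least 1 of the 88 gene lists used here and 142 on none. The lists hold only genes that the annotation names, so they cover parts of families. The 7152 tested sets without a single gene could not be placed on them.

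**Figure D1:**
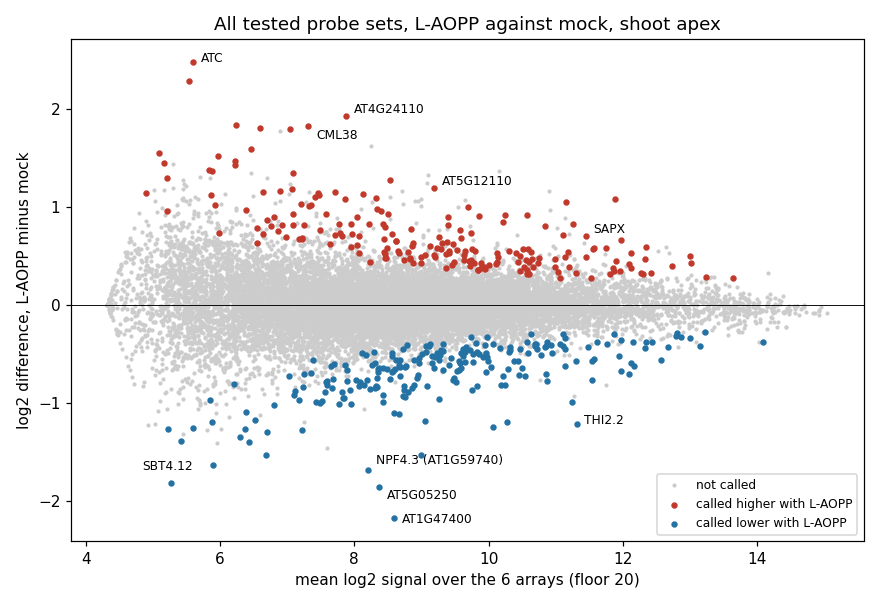
Each point is 1 tested probe set, with its mean log2 signal over the 6 arrays on the x axis and the log2 difference, L-AOPP minus mock, on the y axis. The 199 called higher sets (red) reach 2.48 at ATC, and the 219 called lower sets (blue) reach -2.18 at AT1G47400.

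Genes that respond to a lack of iron included the largest fall among named genes. Plants short of iron turn on uptake and signalling genes through a cascade of bHLH factors, and the iron deficiency list holds such genes. Of 7 tested, 3 fell, 0 rose and 4 were not called, against 1.38% called lower over all probe sets. AT1G47400 had signals of 158.7, 218.5 and 172.8 with L-AOPP, against 1102.7, 725.5 and 691.9 in mock. All 3 L-AOPP values lay far below all 3 mock values, and the gene was 4.52-fold lower (log2 -2.18 ± 0.26 SE, n = 3 arrays a group, limma adjusted p 0.00069).

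AT5G05250 read 185.0, 211.5 and 135.6 with L-AOPP, against 852.9, 579.7 and 507.5 in mock (log2 -1.85 ± 0.30, limma adjusted p 0.00564). Again the groups did not overlap, with mock replicate 1 the highest array for both genes. PYE, which encodes the bHLH repressor POPEYE of the iron deficiency response, had 103.1, 134.7 and 130.4 with L-AOPP, against 284.7, 231.9 and 217.9 in mock. The groups did not overlap (log2 -0.997 ± 0.24, limma adjusted p 0.0386). Its call ended when any 1 of the 6 arrays was left out, at adjusted p-values of 0.0548 to 0.152, while the other 2 genes were called without any 1 array.

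The other 4 members of the iron list were not called. Their log2 differences lay between 0.00 and 0.37, so that the median of the list was 0.00 although 3 members were far below it. AT3G13610 (F6'H1), for an enzyme of coumarin synthesis in iron-starved roots, was below the floor of 20 on all 6 arrays. Its value of 0.00, set by the floor, was the median of the list. The list median stayed 0.00 with a floor of 50, but was -0.997 with no floor and -0.29 with log2(value + 20). With the lowest 50% of probe sets left out, 3 members were tested and their median was -1.85. The bHLH factors bHLH104 (log2 -0.27 ± 0.09, adjusted p 0.151) and ILR3 (-0.24 ± 0.10, adjusted p 0.226), which act upstream in the iron response, did not pass limma's test. Of the metal transporters that the annotation names, only ZIP6 (-0.29) and MTP11 (-0.12) were tested, and neither was called.

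The nitrate list had the lowest median among the 56 lists with at least 3 tested members. The low median came from AT1G06830 and a cluster of neighbouring genes on chromosome 4, and not from the list as a whole. Nitrate is taken up by roots, moved to the shoot by transporters that include the NPF family, and acts as a signal that induces a set of genes within minutes. All 7 tested members of the nitrate list had a value below 0, the median was -0.87 beside -0.01 over all probe sets, and 2 of them fell (1.38% over all probe sets). AT1G06830 read 577.3, 586.1 and 763.4 with L-AOPP, against 1322.3, 1014.7 and 1184.4 in mock (log2 -0.87 ± 0.11, limma adjusted p 0.0017). All 3 L-AOPP arrays lay below the lowest mock array, and the call held without any 1 array.

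AT4G15700 had 39.2, 42.1 and 73.1 with L-AOPP, against 147.5, 117.8 and 115.1 in mock (log2 -1.35 ± 0.26, limma adjusted p 0.0163). Its call ended without L-AOPP replicate 1 or 2 or mock replicate 1, at adjusted p-values of 0.074 to 0.0859. AT4G15690, AT4G15660 and AT4G15680, which lie next to AT4G15700 on chromosome 4, had log2 differences of -1.13, -0.88 and -0.73. None of these 3 was called (limma adjusted p 0.0733, 0.0946 and 0.162), though the groups did not overlap for any of them. Probe sets of such close gene copies can share signal, so the 4 are not independent readings. The last 2 members, AT1G68670 (-0.20) and AT1G25550 (-0.13), were near 0.

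In the NPF family, whose proteins carry nitrate, peptides and several hormones, 2 of 7 tested members fell and 0 rose, against 1.38% called lower and 1.25% called higher over all probe sets. NPF4.3 (AT1G59740) read 175.5, 162.8 and 157.3 with L-AOPP, against 589.5, 473.6 and 535.1 in mock. The lowest mock array was well above the highest L-AOPP array, and the gene had the smallest adjusted p among named genes (3.22-fold lower, log2 -1.69 ± 0.13, limma adjusted p 1.7e-05). NPF4.4 (AT1G33440), its close relative in the same clade, had 104.5, 92.0 and 110.5 with L-AOPP, against 170.0, 154.8 and 251.4 in mock (log2 -0.88 ± 0.20, limma adjusted p 0.0326). The groups did not overlap, but its call was kept only when mock replicate 2 was the array left out (adjusted p 0.0682 to 0.129 otherwise).

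The other NPF members were not called. The glucosinolate transporters GTR2 and GTR1 had log2 differences of -0.22 and 0.08, NPF6.2 (AT2G26690) -0.20, NPF6.4 (AT3G21670) -0.07 and NPF3.1 (AT1G68570) 0.49. Over the 9 lists of transporters, 23 probe sets were tested and those of NPF4.3 and NPF4.4 were the only ones called (1.38% called lower over all probe sets). The 6 tested sugar transporters and the 6 proton pumps, ion channels and exchangers were among those not called.

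**Figure D2:**
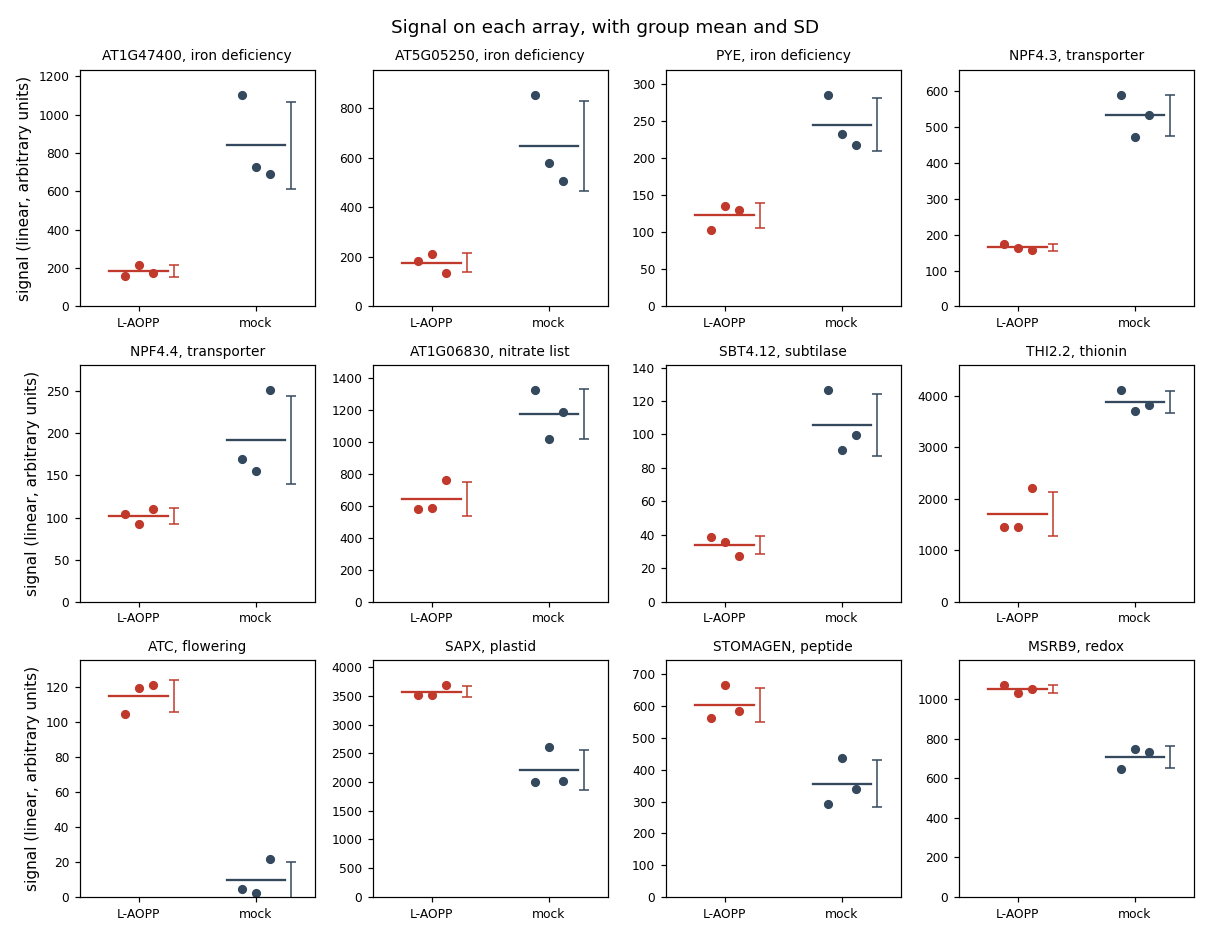
Signal (linear, arbitrary units) of 12 named genes on each L-AOPP array (red, left) and each mock array (dark, right), with the group mean as a line and the SD over 3 arrays as a bar. In every panel the 3 L-AOPP values lie on 1 side of the 3 mock values, with ATC near 115 against values at or near 20 or below.

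Genes of the core hypoxia list were higher in most cases, with large differences and few calls. In plant cells short of oxygen, ERF factors that are otherwise degraded induce a compact set of genes for fermentation and signalling. Of 18 tested members, 17 had a value above 0, 13 had no overlap between the groups (10.5% of all probe sets were higher without overlap), and 2 were called higher (1.25% over all). The median log2 difference was 0.70, beside -0.01 over all probe sets, and it lay between 0.59 and 0.77 when any 1 array was left out.

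AT4G24110 read 451.4, 460.2 and 462.5 with L-AOPP, against 84.7, 165.3 and 124.0 in mock. The L-AOPP arrays agreed closely and were all above the mock arrays, which spread about their mean (3.81-fold higher, log2 1.93 ± 0.47, limma adjusted p 0.0411). CML38, for a calmodulin-like calcium sensor, had 249.7, 318.3 and 341.9 with L-AOPP, against 63.5, 77.6 and 122.8 in mock (log2 1.83 ± 0.46, limma adjusted p 0.0475). The AT4G24110 call was kept only without mock replicate 2 (0.114 to 0.162 otherwise), and the CML38 call ended without any 1 array (0.0702 to 0.169).

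HRA1 (AT3G10040), a transcription factor that damps the hypoxia response, read 805.1, 803.1 and 894.7 with L-AOPP, against 279.0, 457.8 and 343.4 in mock. Its log2 difference of 1.24 was not called (limma adjusted p 0.0665), although every L-AOPP array was higher. The same held for AT1G33055 (1.33, adjusted p 0.0551) and AT2G17850 (1.24, adjusted p 0.189). PDC2, for a pyruvate decarboxylase of ethanol fermentation, was at 0.03 and AT5G26200 at -0.54, the 1 member below 0.

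These genes also varied within groups and in the other apex samples. The mean log2 signal over the 18 members was 8.83, 8.95 and 9.12 on the L-AOPP arrays, against 8.06, 8.32 and 8.39 on the mock arrays. On the 3 arrays of L-AOPP with IAA it was 9.03, 7.89 and 8.85, a spread wider than the gap between L-AOPP and mock. With only the 6 L-AOPP and mock arrays in the model, CML38 and AT4G24110 were called at adjusted p-values of 0.0355 and 0.0263 in limma. In that same fit 28 of the 53 called genes named here lost their call.

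**Figure D3:**
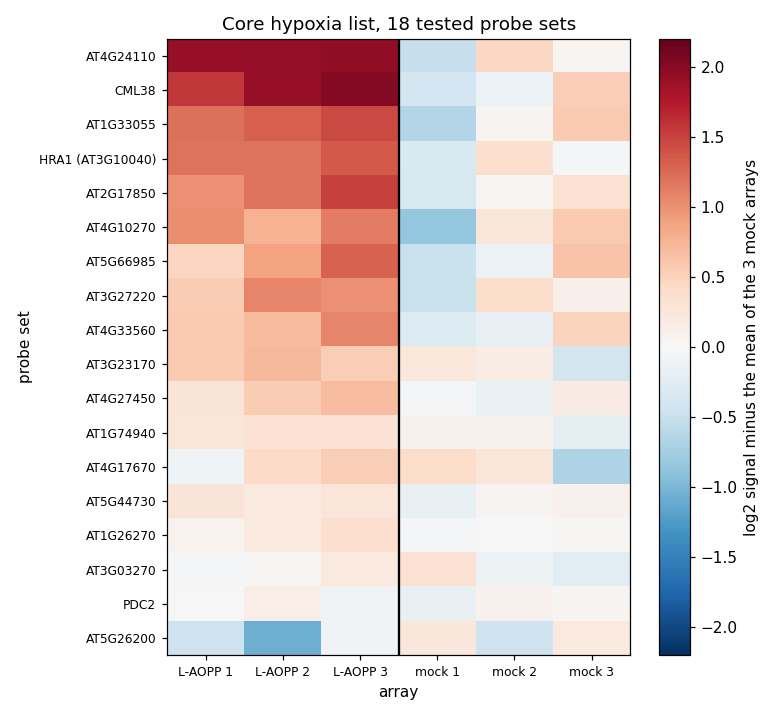
Rows are the 18 tested probe sets of the core hypoxia list, columns the 3 L-AOPP and 3 mock arrays, and colour the log2 signal minus the mean of the 3 mock arrays. Red fills the L-AOPP side for most rows, strongest for AT4G24110 and CML38, while PDC2 stays pale and AT5G26200 is the bluest on the L-AOPP side.

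The general list of nuclear genes for plastid proteins had 0 of 23 called (2.63% over all probe sets) and a median of 0.03. Single genes for plastid proteins that rose were SAPX, CHLI2, PAC, CFM3A, MRL7-L and MAP1C. They were named as large changes, from other lists or after their values were seen, so they give no share for plastid genes. Chloroplasts form in the young leaves of the apex from small proplastids, and this needs nuclear genes for pigment synthesis, plastid RNA processing and protection from peroxide. SAPX, for the stromal ascorbate peroxidase that removes hydrogen peroxide in the chloroplast, read 3515.4, 3521.1 and 3686.9 with L-AOPP, against 2001.5, 2604.2 and 2020.7 in mock. The groups were well apart (1.63-fold higher, log2 0.71 ± 0.09, limma adjusted p 0.00141), and the call held without any 1 array.

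CHLI2, for a subunit of magnesium chelatase in chlorophyll synthesis, had 1009.9, 1007.0 and 986.6 with L-AOPP, against 737.2, 882.4 and 589.9 in mock (log2 0.46 ± 0.12, limma adjusted p 0.0478). It was the only 1 of 10 tested genes of chlorophyll and tetrapyrrole synthesis that was called (1.25% called higher over all probe sets). The list had 8 values above 0 and a median of 0.23, with PORB at 0.32 and GSA1 at 0.30, neither called.

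PAC (PALE CRESS), needed for plastid RNA maturation and chloroplast development, rose by 0.55 ± 0.13 (limma adjusted p 0.036). CFM3A, for a CRM protein of plastid intron splicing, rose by 0.45 ± 0.10 (adjusted p 0.0352) and MRL7-L, for a factor of plastid gene expression, by 0.46 ± 0.11 (adjusted p 0.0331). SAPX, PAC, CFM3A and MRL7-L were on no list; the last 3 were chosen after their values were seen. The calls of CHLI2, PAC and MRL7-L were kept only without mock replicate 2 (adjusted p 0.0708 to 0.147 otherwise), and that of CFM3A only without L-AOPP replicate 1 (0.0577 to 0.159 otherwise). MAP1C, for a plastid methionine aminopeptidase, rose as well (log2 0.49 ± 0.10, limma adjusted p 0.0242), a call kept only without mock replicate 2 (0.0545 to 0.108 otherwise).

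Nuclear genes for the photosynthetic apparatus gave no call, where 2.63% were called over all probe sets. Of 8 tested genes of photosynthesis and the Calvin cycle the median was -0.07, and -0.09 to -0.02 with 1 array left out. The antenna gene LHCB4.2 had a log2 difference of -0.31 (limma adjusted p 0.0832). The 23 tested genes on the general plastid list included 14 values above 0, and Cpn60beta2, for a plastid chaperonin, came nearest (0.53, adjusted p 0.0603).

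Genes on the plastid genome itself gave an array-dependent picture. Of 69 tested probe sets, 53 had a value above 0 and the median was 0.22, but only rpoC2, for a subunit of the plastid RNA polymerase, was called (1.25% over all probe sets). It read 1711.9, 1658.5 and 3246.4 with L-AOPP, against 1113.7, 1276.7 and 964.5 in mock (log2 0.92 ± 0.21, limma adjusted p 0.0346). The groups did not overlap, with L-AOPP replicate 3 standing highest, and the call was kept only without mock replicate 2 (0.0514 to 0.126 otherwise).

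The mean log2 signal over the 69 sets was 10.5, 10.3 and 11.2 with L-AOPP, against 10.7, 10.5 and 9.99 in mock, so 1 array of each group stood apart in opposite directions. Without L-AOPP replicate 3 the median was -0.04, with 33 values above 0, and without mock replicate 3 it was 0.10. Mock replicate 3 is the array with the low 25S rRNA control, whose part in this result was not tested. The 4 RNA polymerase sets had a median of 0.56, the 15 ribosomal protein sets 0.29 and the 28 photosystem and electron transport sets 0.21.

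On the redox lists, MSRB9 and MSRB5 rose and ROXY1 fell. Methionine sulfoxide reductases repair oxidised methionine in proteins. MSRB9 read 1070.7, 1029.6 and 1051.2 with L-AOPP, against 645.1, 747.3 and 735.3 in mock (log2 0.57 ± 0.12, limma adjusted p 0.0205), with no overlap. MSRB5 had 3136.4, 3381.7 and 2092.1, against 1670.1, 1458.4 and 2080.7 (log2 0.71 ± 0.17, adjusted p 0.0408), where L-AOPP replicate 3 and mock replicate 3 all but met.

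Of 14 tested thioredoxins, peroxiredoxins and methionine sulfoxide reductases these 2 were called (1.25% called higher over all probe sets), and the median was 0.11, or 0.0682 to 0.145 with 1 array left out. The MSRB9 call was kept without mock replicate 2 or 3 (0.0625 to 0.0978 otherwise) and the MSRB5 call without L-AOPP replicate 3 or mock replicate 3 (0.0955 to 0.181 otherwise). ROXY1, a glutaredoxin gene of petal and anther development, read 442.3, 473.8 and 489.7 with L-AOPP, against 751.8, 708.8 and 738.5 in mock (log2 -0.65 ± 0.13, limma adjusted p 0.018). It was the 1 call (1.38% called lower over all probe sets) among the 5 tested genes whose symbols name them as glutaredoxins, 2 of which had values above 0. Glutaredoxin genes listed by locus code alone are not among these 5, so the count does not describe the whole family. The ROXY1 call was kept without L-AOPP replicate 3 or mock replicate 2 (0.0578 to 0.0795 otherwise).

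UDP-glycosyltransferases attach sugars to hormones and secondary metabolites. Of 34 tested genes on the UGT list 2 rose and 0 fell, against 1.25% called higher over all probe sets. The median was 0.04, with 21 values above 0. UGT87A2 read 193.2, 200.4 and 172.1 with L-AOPP, against 93.3, 120.8 and 86.9 in mock (log2 0.92 ± 0.17, limma adjusted p 0.0113). UGT73B1 had 279.1, 387.6 and 325.7, against 201.8, 224.0 and 140.4 (log2 0.82 ± 0.17, adjusted p 0.0242). In both genes every L-AOPP array was above every mock array.

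IAGLU, for an enzyme that joins glucose to indole-3-acetate, was on no list, so the UGT counts leave it out. The gene was chosen after its values were seen. It read 336.7, 276.9 and 247.7 with L-AOPP, against 184.1, 174.3 and 158.1 in mock (log2 0.73 ± 0.15, limma adjusted p 0.021). The groups did not overlap. BGLU15, for a beta-glucosidase, rose by 0.65 ± 0.13 (adjusted p 0.0196), 1 of 11 tested members of its family (1.25% over all probe sets). Leaving out arrays ended these 4 calls. UGT87A2 was kept without L-AOPP replicate 3 or mock replicate 2 or 3 (0.0541 to 0.063 otherwise). UGT73B1 was kept without L-AOPP replicate 1 or mock replicate 2 (0.0619 to 0.116), IAGLU without L-AOPP replicate 3 or mock replicate 2 (0.0569 to 0.0924), and BGLU15 only without mock replicate 2 (0.052 to 0.089).

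The 11 tested glutathione transferases, the 11 cytochrome P450 enzymes and the 5 class III peroxidases had 0 calls each, where 2.63% were called over all probe sets. Their medians depended on single arrays. That of the cytochrome P450 enzymes was 0.19, and 0.04 without mock replicate 1 or 0.07 without mock replicate 3. That of the class III peroxidases was 0.37, and 0.08 without mock replicate 2 or 0.10 without L-AOPP replicate 3, and with the lowest 50% of probe sets left out only 1 member, at -0.116, was tested. On the phenylpropanoid side, the 5 tested genes of flavonoid and anthocyanin synthesis had values between 0.08 and 0.36 and none was called. Only 3 of them were above 0 without L-AOPP replicate 2, and their median of 0.24 was 0.01 without mock replicate 1. The 4 tested genes of shikimate and aromatic amino acid synthesis had 3 values above 0 and no call.

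Over the 5 cell wall lists other than that of the TBL family, 40 probe sets were tested, 0 rose and 1 fell. Over all probe sets 1.25% were called higher and 1.38% lower. The other 3 calls, all lower, were on the TBL list, which was added after its values were seen. Expansins loosen the wall during growth, and of 12 tested members 9 had values below 0, 6 of them without overlap (12.3% of all probe sets were lower without overlap). The median was -0.30 and 0 were called, with EXPA8 nearest. EXPA8 read 322.1, 255.5 and 302.7 with L-AOPP, against 436.4, 409.3 and 418.1 in mock (log2 -0.53, limma adjusted p 0.0535). Every L-AOPP array was below every mock array for this gene.

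GH9B13, for an endoglucanase of the cellulose-cleaving family 9, had 725.9, 764.4 and 651.9 with L-AOPP, against 1004.5, 933.4 and 1303.3 in mock (log2 -0.59 ± 0.12, limma adjusted p 0.0222). It was the only call among 23 tested cellulose and hemicellulose genes, 17 of which had values below 0 (1.38% called lower over all probe sets), and it was kept only without mock replicate 2 (0.0588 to 0.0897 otherwise). The 6 tested XTH genes, for xyloglucan-remodelling enzymes, had no call.

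The TBL family, whose characterised members acetylate wall polysaccharides, was added as a list after its values were seen. Of 20 tested probe sets 3 fell, against 1.38% called lower over all probe sets, and 12 had values below 0. The median was -0.13, and -0.07 without mock replicate 1. TBL38 read 186.3, 192.5 and 167.7 with L-AOPP, against 303.4, 311.9 and 322.9 in mock (log2 -0.78 ± 0.12, limma adjusted p 0.00402), and its call held without any 1 array. TBL36 fell by 0.76 and TBL45 by 0.42 on the log2 scale (limma adjusted p 0.0242 and 0.0409). The TBL36 call was kept without L-AOPP replicate 1 or mock replicate 2 (0.0811 to 0.0926 otherwise) and the TBL45 call only without mock replicate 2 (0.0587 to 0.172 otherwise).

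**Figure D4:**
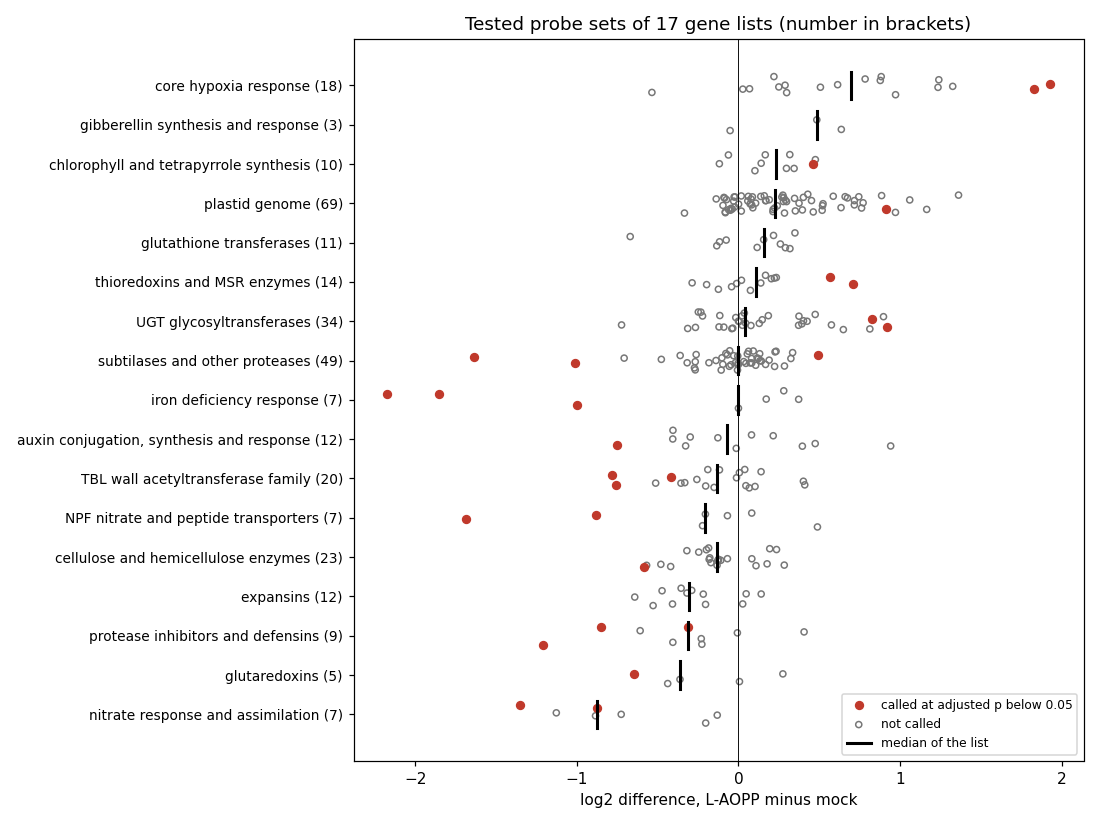
Each point is a tested probe set of a gene list, with its log2 difference, L-AOPP minus mock, on the x axis; red points were called and black bars are list medians. The core hypoxia list has a median of 0.70 and the nitrate list one of -0.87. The iron list has a median of 0.00, the value of AT3G13610 at the floor, with 3 called members between -2.18 and -0.997.

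Defence and protease genes supplied several of the falls. THI2.2, for a thionin, a small antimicrobial peptide, read 1459.3, 1454.0 and 2205.8 with L-AOPP, against 4108.4, 3699.1 and 3823.6 in mock. The mock arrays lay close together and far above the L-AOPP arrays (2.32-fold lower, log2 -1.21 ± 0.18, limma adjusted p 0.00338). ChiC, for a class V chitinase that cleaves fungal chitin, fell by 0.85 on the log2 scale (limma adjusted p 0.011), and LCR68, for a defensin-like peptide, by 0.31 (adjusted p 0.0336).

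These 3 were the calls among 9 tested defensin, thionin, chitinase and protease inhibitor genes (1.38% called lower over all probe sets), whose median was -0.31 with 8 values below 0. PDF1.2, the defensin marker of the jasmonate and ethylene pathways, was at -0.41 and not called (limma adjusted p 0.37). The ChiC call ended without mock replicate 1 (adjusted p 0.0638), and the LCR68 call was kept only without mock replicate 2 or 3 (0.0831 to 0.134 otherwise).

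SBT4.12, for a subtilisin-like serine protease, read 38.4, 35.8 and 27.6 with L-AOPP, against 126.5, 90.6 and 99.6 in mock. The groups were well apart though dim (3.11-fold lower, log2 -1.64 ± 0.20, limma adjusted p 0.000781), and the call held without any 1 array. The carboxypeptidase-like gene scpl31 had 188.5, 175.6 and 158.8 with L-AOPP, against 448.5, 397.4 and 241.1 in mock (log2 -1.01 ± 0.21, adjusted p 0.0242). Mock replicate 3 was the lowest mock array but still above every L-AOPP array, and the call was kept only without it (0.0532 to 0.117 otherwise). Of 49 tested protease genes 1 rose (MAP1C) and 2 fell, where 1.25% higher and 1.38% lower were called over all probe sets.

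GAMMA-VPE, for the vacuolar processing enzyme that matures vacuolar proteins, fell by 0.44 on the log2 scale (limma adjusted p 0.0348). TSC10A, for a reductase of sphingolipid synthesis, fell by 0.32 (adjusted p 0.0495), and PRA1.F1, for a prenylated Rab acceptor of membrane traffic, by 0.82 (adjusted p 0.0199). These 3 genes were chosen after their values were seen. The PRA1.F1 call was kept without L-AOPP replicate 3 or mock replicate 2, and the calls of the other 2 only without mock replicate 2 (0.0698 to 0.163 otherwise).

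Genes on the transcription factor lists were called at about the same share as all probe sets. These lists do not hold PYE, the bHLH gene called lower on the iron deficiency list. Over 11 lists of transcription factor families, 74 probe sets were tested, 1 rose and 1 fell, against 1.25% called higher and 1.38% called lower over all probe sets. The fall was HAT2, for an auxin-inducible homeodomain-leucine zipper protein, which read 378.2, 429.1 and 328.2 with L-AOPP, against 676.5, 525.7 and 714.2 in mock (log2 -0.75 ± 0.14, limma adjusted p 0.0118). The rise was AGL87, a MADS box gene, which read 312.2, 278.0 and 282.7, against 144.7, 220.3 and 139.7 (log2 0.82 ± 0.16, adjusted p 0.0183). In both genes the groups did not overlap. The HAT2 call was kept without L-AOPP replicate 2 or mock replicate 2 (0.0515 to 0.0638 otherwise) and that of AGL87 only without mock replicate 2 (0.0508 to 0.0861 otherwise).

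The largest rise was that of ATC, which encodes a relative of the floral repressor TFL1. It read 104.5, 119.6 and 120.9 with L-AOPP, against 4.4, 2.0 and 21.7 in mock. With 2 mock arrays below the floor of 20, the log2 difference of 2.48 ± 0.20 is a lower bound (limma adjusted p 1.87e-05). ATC was the only called member of 3 tested flowering genes (1.25% called higher over all probe sets), and the other 2 had values below 0.

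Of 14 tested genes on the bHLH list, which leaves out PYE, 19 on the bZIP list and 6 on the WRKY list none was called. Over all probe sets 2.63% were called. BZIP61 came nearest (log2 -0.73, limma adjusted p 0.0672). On the hormone lists the only calls were HAT2 and THI2.2, which also stands on the jasmonate list. The gibberellin receptor genes GID1A, GID1B and GID1C had log2 differences of 0.48, 0.64 and -0.05, and their adjusted p-values in limma were 0.113, 0.148 and 0.936. Of 12 tested auxin genes 1 fell, HAT2 (1.38% called lower over all probe sets).

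STOMAGEN, for a secreted peptide of inner leaf tissue that promotes stomata, read 561.6, 665.7 and 585.7 with L-AOPP, against 292.9, 436.0 and 340.0 in mock. The groups did not overlap (log2 0.78 ± 0.17, limma adjusted p 0.0297), and it was the 1 call among 10 tested signalling peptide genes (1.25% called higher over all probe sets), 8 of which had values below 0. FKBP65 (AT5G48570, ROF2), for a heat-inducible immunophilin that binds HSP90, read 249.1, 215.9 and 242.5, against 133.1, 155.1 and 129.1 (log2 0.76 ± 0.15, adjusted p 0.0146). It was the only call among 13 tested heat shock and chaperone genes (1.25% called higher over all probe sets), 9 of which had values above 0. The STOMAGEN call was kept only without mock replicate 2 (0.0729 to 0.131 otherwise) and that of FKBP65 without L-AOPP replicate 2 or mock replicate 2 (0.0516 to 0.0679 otherwise).

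The lists of housekeeping systems had no called member, where 2.63% were called over all probe sets. This held for 17 tested histone and chromatin genes, 16 genes of tubulins, actins, kinesins and myosins, 13 ubiquitin ligases of the RING and U-box types, 9 autophagy genes, 13 pentatricopeptide repeat genes and 14 genes of glycolysis, fermentation and the tricarboxylic acid cycle. In all, 35 of the 56 lists with at least 3 tested members had 0 calls in limma. In lists of this size 0 calls is near the share over all probe sets and says little about the systems.

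Several changes that were called without any 1 array lie in genes that the annotation lists by locus code alone. Of the 22 named genes called without any 1 of the 6 arrays, 9 were higher and 13 lower. On the higher side, AT5G12110 read 869.4, 1021.2 and 773.2 with L-AOPP, against 310.0, 477.9 and 387.1 in mock (log2 1.19 ± 0.18, limma adjusted p 0.00338). AT3G43670, a copper amine oxidase gene, had 277.7, 266.6 and 241.1, against 134.9, 117.9 and 105.2 (1.14 ± 0.15, adjusted p 0.00193). AT1G06100 had 226.7, 240.9 and 230.1, against 119.1, 104.2 and 122.1 (1.02 ± 0.15, adjusted p 0.00367). None of these groups overlapped.

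AT5G16030, AT1G15260, AT2G25510 and AT4G18970 rose by 0.90, 0.72, 0.66 and 0.64 on the log2 scale, at limma adjusted p-values of 0.00513 to 0.0072. AT2G25510 was the brightest of them, with 4938.3, 5102.7 and 5053.0 with L-AOPP, against 3205.4, 2888.4 and 3479.1 in mock. On the lower side, AT3G56360 read 763.2, 706.4 and 616.2 with L-AOPP, against 1836.5, 1650.8 and 1473.3 in mock (log2 -1.25 ± 0.17, adjusted p 0.00176). AT2G34700, AT3G26760, AT3G45160, AT3G17770 and AT1G28400 fell by 1.10, 0.83, 0.73, 0.66 and 0.62 on the log2 scale. For all of these genes the 3 L-AOPP values lay on 1 side of the 3 mock values.

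The arrays with L-AOPP and 10 nM IAA have the L-AOPP arrays as their control, so the values are set side by side with no test. ATC averaged 15.5 ± 11.1 with L-AOPP and IAA, 115 ± 9.12 with L-AOPP and 9.37 ± 10.8 in mock (SD, n = 3 each). In the same groups AT1G59740 (NPF4.3) averaged 189 ± 13.2, 165 ± 9.33 and 533 ± 58.0, and AT1G47400 387 ± 134, 183 ± 31.3 and 840 ± 228.

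The dissected part carried meristem transcripts in both groups. CLV3, the stem cell peptide gene, read 68.3, 81.5 and 72.3 with L-AOPP, against 186.4, 101.7 and 140.2 in mock, with no overlap and no call (log2 -0.91 ± 0.36, limma adjusted p 0.208). The annotation names 4 of the 16 meristem and boundary genes on the marker list, CLV3, UFO, LAS and PHV. They summed to 1340 to 1390 with L-AOPP and 1530 to 2020 in mock, with 0 called and a median of -0.67. Genes of this and the other marker lists that the annotation does not name may still be on the array. Photosynthetic leaf markers (5 genes) summed to 39300 to 41500 with L-AOPP and 42200 to 44300 in mock, and leaf primordium markers (2 genes) to 1290 to 1580 and 1060 to 1920. The 3 epidermis, stomata and trichome markers named in the annotation summed to 241 to 321 with L-AOPP and 163 to 271 in mock. The 2 of them tested had a median log2 difference of 0.23. The 3 root and root hair markers summed to 19.7 to 73.9 and 45.8 to 81.6, and 1 of them was below the floor on all 6 arrays. ICL, the 1 seed reserve marker named in the annotation, read 2.4, 6.2 and 2.5 with L-AOPP, against 35.7, 53.6 and 53.6 in mock (log2 -1.23 with the floor, adjusted p 0.318). No marker gene of these lists was called, and the part of these shifts in the results above was not tested.

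RNA quality was read from 3′ and 5′ control probe sets. Their log2 ratio for GAPDH was 1.39, 1.49 and 1.63 with L-AOPP, against 1.85, 1.39 and 2.1 in mock (exact two-sided permutation p = 0.3). For ubiquitin it averaged 1.69 ± 0.06 with L-AOPP and 1.85 ± 0.06 in mock (SD, n = 3), lower on all 3 L-AOPP arrays (exact permutation p = 0.1, the smallest that 3 against 3 allows). For actin it averaged 4.39 ± 0.45 and 4.53 ± 0.36 (exact permutation p = 0.5). With the GAPDH ratio as a covariate, 26 probe sets were called higher and 20 lower, and 37 of the 53 called genes named here lost their call.

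The number of calls depended on single arrays. It fell to 41 higher and 51 lower without L-AOPP replicate 1, to 32 and 48 without L-AOPP replicate 2, and to 72 and 96 without L-AOPP replicate 3. Without mock replicate 1 it was 46 and 46, without mock replicate 3 it was 66 and 91, and without mock replicate 2 it was 293 and 298, above the 199 and 219 of the full set. Of the 418 called probe sets, 26 higher (0.163% of those tested) and 34 lower (0.214%) were called in all 6 of these fits.

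**Figure D5:**
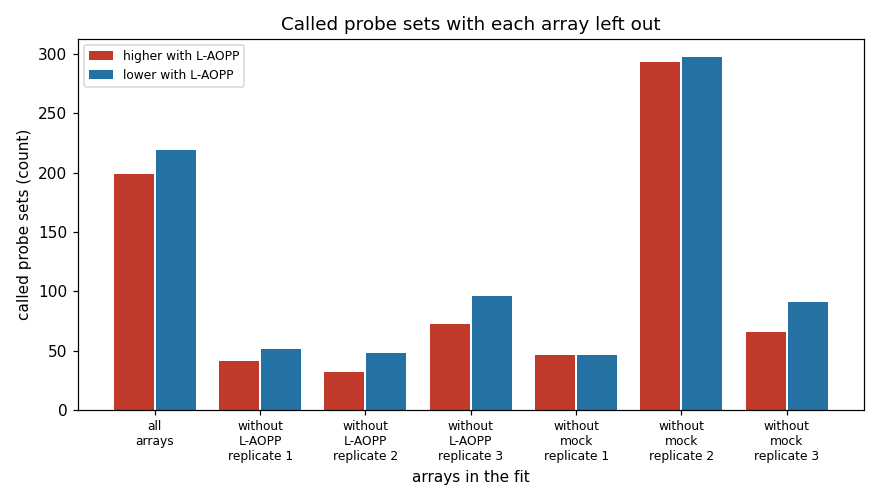
Bars give the number of probe sets called higher (red) and lower (blue) with all arrays and with each of the 6 arrays left out in turn. The counts are 199 and 219 with all arrays, lowest at 32 higher without L-AOPP replicate 2 and highest at 293 and 298 without mock replicate 2.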

How the data were processed

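The authors deposited 1 column of signal intensity per array, on a linear scale, made with MAS5 per the submitters' processing notes, with no version given. The intensity values had been scaled by the authors: the mean without the lowest and highest 2% of each array was 500.0 to 500.1. There are no detection calls, and the 3 arrays a group limit precision. The 64 control probe sets were set aside, values under 20 were set to 20, log2 was taken, and the dimmest 30% (6823 of 22746) were left out. limma 3.58.1 in R 4.3.3 (lmFit, eBayes with intensity trend) had 1 coefficient per group over 12 arrays and 8 residual degrees of freedom, and was tested on simulated data. Same-numbered arrays of the 2 groups did not deviate together (r = -0.196, -0.00858 and -0.106).

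Gene names came from the supplied platform annotation (13513 probe sets with 1 gene, 13484 of them matched to the TAIR10.1 gene table, 503 with several and 8730 unlisted). Members and gene lists were chosen with earlier results of these data known. Lists were made by locus or by symbol, false matches were removed, and the TBL list was added later. Named genes come from the up to 15 largest changes in each direction that were called without any 1 array and did not overlap, from called members of each list (up to 6 in each direction, or the 2 with the smallest p) and from markers. Other genes named were chosen after their values were seen.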

Additional observations from a re-analysis of the deposited data

How the results depend on the processing

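The counts of 199 higher and 219 lower probe sets stayed within 1.5 times under quantile normalization, median centring, no floor, a floor of 50, log2(value + 20), a filter on the lowest 50% and array weights. They fell to 39 higher and 45 lower with no filter, 47 and 51 with only the 6 arrays, 59 and 92 with the 9 SAM arrays, 69 and 96 with no intensity trend, and 26 and 20 with the GAPDH 3′/5′ ratio as a covariate. With 1 array left out they ranged from 32 to 293 higher and from 46 to 298 lower. Same-numbered arrays did not deviate together, and with the replicate block over the 9 SAM arrays 25 were higher and 28 lower. The 6-array, 9-array and left-out fits have fewer samples, and otherwise the cause was not tested. Of 53 called genes named in the report, 22 were called without any 1 array, while 37 lost the call with no filter, 37 with the replicate block and 37 with the covariate. The call was lost by 28 of them with only the 6 arrays, 25 with the 9 SAM arrays and 21 with no intensity trend. No called gene named changed direction under any of these settings. Among genes not called, the sign turned with 1 array left out for GID1C (-0.204 to 0.0817), GTR2 (-0.429 to 0.0172), PDC2 (-0.0537 to 0.0784), GTR1 (-0.0205 to 0.242) and NPF6.4 (AT3G21670, -0.174 to 0.0238). With the covariate it turned for GID1C (0.0506), GTR2 (0.0489) and PDC2 (-0.0271). AT3G13610, at 0 with the floor, gave -1.30 with no floor, -0.289 with log2(value + 20) and 0.00345 with the covariate, all from signals below 20. The median of 16 of the 56 lists with at least 3 tested members changed sign with 1 array left out, among them bHLH factors (-0.163 to 0.069), WRKY factors (-0.0271 to 0.0162, 0.0316 with all arrays), the auxin list (-0.133 to 0.0171) and the plastid genome (-0.0448 to 0.371). The glutaredoxin median, -0.362 with all arrays, ranged from -0.523 to -0.0916. With 3 arrays a group and no detection calls, genes near the floor have only bounds.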
